A study of Mus musculus with 6 samples.

Results

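A set of 7 transcription factor genes with known roles in the hair matrix and hair shaft were examined in the tail epidermis of mice: Lef1, Msx1, Msx2, Foxn1, Foxq1, Foxe1 and Gata3. They were chosen for these roles, with earlier results of these data known, and a probe was assigned to them through its RefSeq accession. The 7 genes were represented by 8 of 55681 probes, Lef1 by 2 and each of the others by 1, among 21368 named genes on the array. A probe entered the tests if 3 or more of the 6 arrays had it marked by the scanner software as well above background, which 6 of the 7 genes met. Foxe1 was the exception.

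The aged group held 3 wild-type C57BL/6 samples, replicate 1 at 22 months and replicates 2 and 3 at 25 months of age, and the young group held 3 wild-type C57BL/6 samples at 8 weeks. Epidermis was separated from tail dermis with EDTA, and amplified cDNA of each sample was hybridised to a 1-colour array. The series sets old against young epidermis, here for the factors of the matrix. Nothing in the labels says that the samples came from separate animals, so a p-value here reflects only how far these samples vary, which may be technical. Values are log2 signals relative to the array's 75th percentile, and differences are aged minus young.

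The hair matrix is the dividing epithelium at the base of a growing follicle, whose daughter cells form the hair shaft and the inner root sheath. Wnt signals reach its precortex through β-catenin and Lef1, and BMP signals act on the Msx homeobox genes, which lie upstream of Foxn1. Resting follicles have no active matrix. Several of these factors are also used outside the follicle: Foxn1 and Gata3 in differentiating epidermal keratinocytes, Lef1 and Gata3 in T cells, and Lef1 in the dermal papilla.

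All 8 epidermal keratinocyte markers (Krt5, Krt14, Krt1, Krt10, Trp63, Dsp, Ivl and Lor) were well above background on every array, and their median deviation from the young mean lay between 0.04 and 0.17 on aged arrays, against -0.04 to 0.02 on young arrays. The share of probes well above background ran from 50.02% to 54.38%, with no saturated spot. Ddx3y and Eif2s3y, which are Y-linked, were well above background on replicate 1 of each group and on no other array. Aged replicate 1 thus differed from the other aged arrays in age and in these transcripts. Precision is limited by having 3 arrays in a group. The arrays lay in different rows of 1 slide, young replicates 1 and 2 in row 1 and the other 4 arrays in row 2.

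With all 6 arrays 0 of the 6 tested factors passed the threshold (limma adjusted p under 0.05), beside 11 of 14136 tested genes, or 0.0778%, that did (0.0354% lower in aged). Blocking on the replicate number gave 0 genes. At an unadjusted p under 0.05 stood 3 of the 6, Lef1 and Msx2 lower and Foxq1 higher in aged epidermis, beside 17.7% of all tested genes. Of the 6 factors 4 had a lower aged mean, as 36.4% of all tested genes did, and 2, Lef1 and Msx2, were lower by more than 1 log2 unit, as were 4.17%. The arrays of the aged group differed among themselves. Lef1, Msx1 and Msx2 were low on the 25-month arrays and within the young range on the 22-month array, while Foxn1, Foxq1 and Gata3 differed by less than 0.5 log2 units on average. The median difference was -0.58 over the 6 factors and 0.09 over all tested genes.

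**Figure D1:**
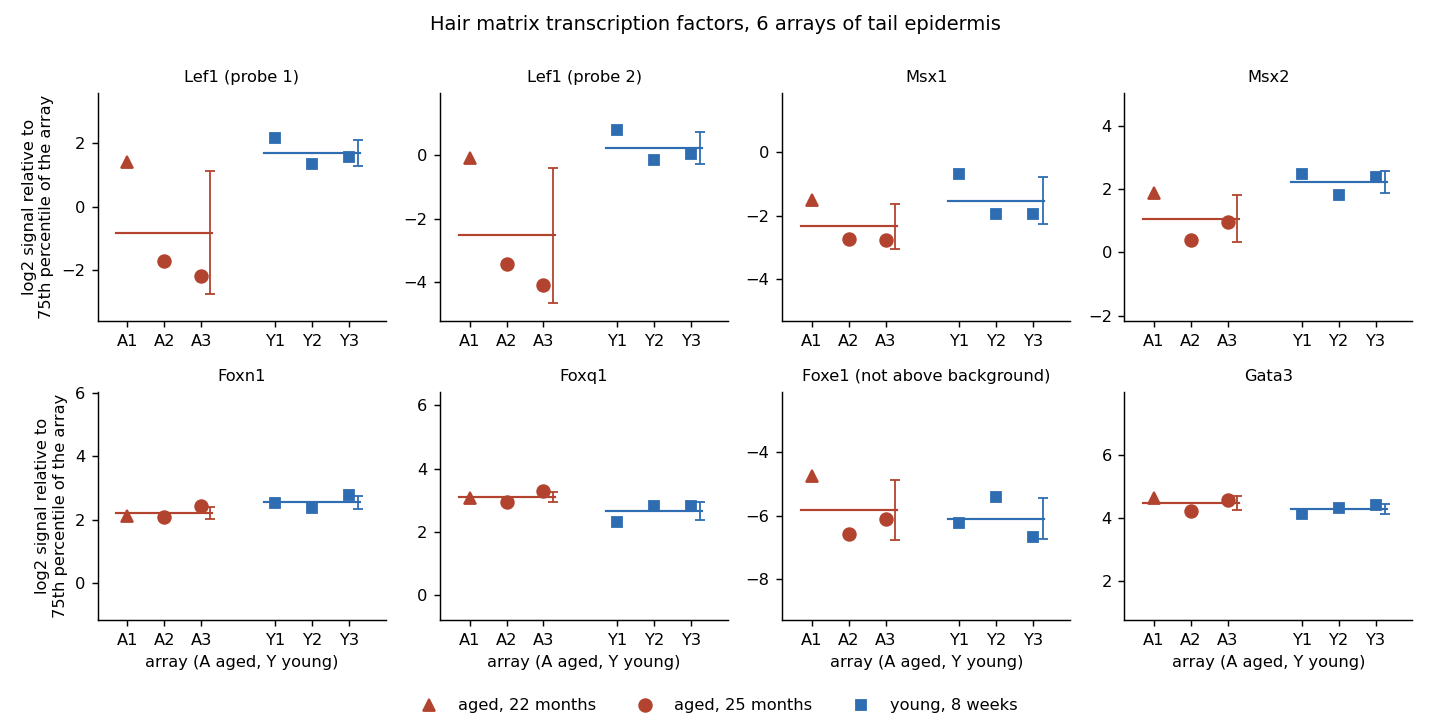
Log2 signal of each of the 8 probes on the 3 aged arrays (triangle 22 months, circles 25 months) and the 3 young arrays (squares, 8 weeks), with group mean (line) and SD (bar); every panel spans the same number of log2 units. Lef1 lay at -1.70 and -2.17 on the 25-month arrays, against 1.37 to 2.16 on the young arrays, and Foxe1 stood near background throughout.

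Lef1 encodes the high-mobility-group factor that carries Wnt signals to hair keratin genes in the precortex. Its brighter probe read 1.41, -1.70 and -2.17 on aged replicates 1, 2 and 3, against 2.16, 1.37 and 1.56 on young replicates 1, 2 and 3. Aged replicate 1 lay inside the young range and the 25-month arrays far below it, so the groups overlapped. Lef1 averaged -0.82 ± 1.94 in aged and 1.69 ± 0.41 in young epidermis (SD, n = 3 arrays each). The difference was -2.52 ± 0.93 (SE, 5.72-fold, limma adjusted p = 0.243), with a 95% confidence interval of -4.77 to -0.26.

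The other Lef1 probe showed the same order of arrays. It read -0.09, -3.42 and -4.08 on aged replicates 1, 2 and 3, against 0.81, -0.14 and 0.06 on the young arrays, a difference of -2.77 ± 1.02 (SE). It was well above background on every array, though its value of -4.08 on aged replicate 3 stood close to the lowest signal so marked there, -4.45.

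Without aged replicate 1, which leaves the 25-month arrays, Lef1 was lower than in young epidermis by 3.63 ± 0.28 log2 units on this scale (difference -3.63, SE, 2 aged and 3 young arrays, 12.4-fold, limma adjusted p = 0.00611). In that fit 809 genes passed, or 5.72% of those tested, and 532 of them, or 3.76%, were lower. Higher were 1.96%. Young replicate 1 was then the only array with the Y-linked transcripts. Without replicate 1 of both groups Lef1 still passed, at -3.40 (limma adjusted p = 0.0194), among 215 of 14136 tested genes that did. With limma array weights Lef1 was at -3.08 (adjusted p = 0.0204), among 1887 of 14136 tested genes that passed, 840 of them lower. The weights were estimated from the same 6 arrays, so this fit is not independent of those above. Leaving out any other single array gave -1.84 to -2.68, and none of these passed. With the slide row as a block the difference was -2.38 (limma adjusted p = 0.702). This is the same contrast as within row 2, which holds 1 young array. In bulk RNA, fewer cells of a type and less RNA per cell cannot be told apart, and this holds for every difference given here.

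Msx2 encodes a homeobox repressor of matrix and shaft cells, and mice without it lose and regrow their coats in cycles. It read 1.88, 0.38 and 0.95 on aged replicates 1, 2 and 3, against 2.48, 1.82 and 2.37 on the young arrays. The 25-month arrays lay below every young array, and the 22-month array just inside the young range. The means were 1.07 ± 0.76 in aged and 2.22 ± 0.36 in young epidermis (SD, n = 3 each). The difference was -1.15 ± 0.40 (SE, 2.22-fold, limma adjusted p = 0.227).

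Without aged replicate 1 Msx2 was lower by 1.55 log2 units at 25 months (difference -1.55 ± 0.27, SE, 2.94-fold, limma adjusted p = 0.0365). Array weights gave -1.58 (limma adjusted p = 0.0262), in the fit where 1887 of 14136 tested genes passed, 840 of them lower. The Msx2 difference was -1.42 without replicate 1 of both groups and did not pass (adjusted p = 0.0933). The slide row as a block gave -1.29 (adjusted p = 0.695), the same contrast as row 2 alone with its 1 young array. Lef1 and Msx2 were the 2 of 6 factors past the threshold among the 25-month arrays, beside the 5.72% of all tested genes given above.

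Msx1, the related homeobox gene, acts together with Msx2 in skin appendages. It read -1.50, -2.73 and -2.77 on aged replicates 1, 2 and 3, against -0.68, -1.95 and -1.94 on the young arrays. Replicate 1 was the highest array in each group, and the groups overlapped. The difference was -0.82 ± 0.49 (SE, limma adjusted p = 0.408). It was -1.23 ± 0.41 without aged replicate 1 and did not pass (adjusted p = 0.161).

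Taken by replicate number, aged minus young was -0.83, -0.79 and -0.84 for Msx1. Replicate 1 stood 1.25 log2 units above the mean of replicates 2 and 3 in the aged group and 1.26 above it in the young group. The same differences by number were -0.75, -3.06 and -3.74 for Lef1 and -0.60, -1.44 and -1.41 for Msx2, so for these genes replicate 1 differed less than the others. With the replicate number as a block Msx1 differed by -0.82 ± 0.11 (SE, limma adjusted p = 0.156), which did not pass. Normexp background correction gave a difference of -0.40 in place of -0.82. The slide row as a block gave -0.40 as well, the same contrast as row 2 alone with its 1 young array. The cause of these shifts was not tested. The Msx1 difference was -0.39 without young replicate 1.

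**Figure D2:**
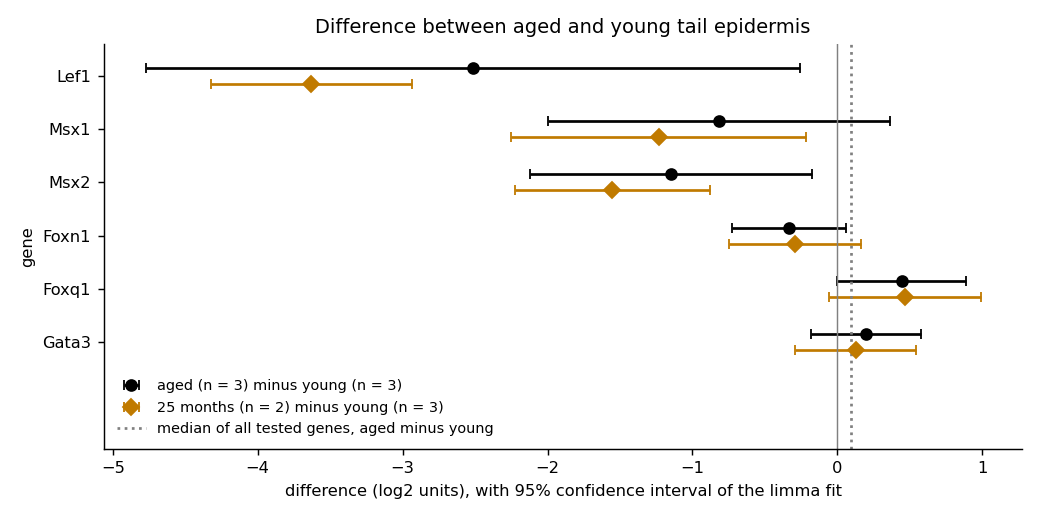
Difference in log2 units of the 6 tested factors, with the 95% confidence interval of the limma fit, for aged minus young with all 6 arrays (circles) and for the 25-month arrays minus young (diamonds); the dotted line marks the median of all tested genes, 0.09. For Lef1 the interval narrows from the circle to the diamond, at -2.52 and -3.63, while Foxn1, Foxq1 and Gata3 hold nearly the same place in each fit.

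The promoter windows of the 3 factors that were low at 25 months are shown so that their sequence can be set beside these values. They are RefSeq windows of the GRCm38.p6 assembly, 250 bases before to 50 bases after a transcript start, read along the gene, and 5 of the 7 factors matched the table. Lef1 has 4 windows, of which the most upstream (chr3:131110047-131110346, plus strand) and the most downstream (chr3:131156044-131156343, plus strand) are printed. Msx1 lies at chr5:37824536-37824835 and Msx2 at chr13:53472731-53473030, on the minus strand. Capitals mark matches on either strand to 4 motifs: CTTTGA for LEF/TCF factors, TAATTG for homeobox factors, GTAAACA for forkhead factors and AGATAA for GATA factors.
Lef1 upstream start: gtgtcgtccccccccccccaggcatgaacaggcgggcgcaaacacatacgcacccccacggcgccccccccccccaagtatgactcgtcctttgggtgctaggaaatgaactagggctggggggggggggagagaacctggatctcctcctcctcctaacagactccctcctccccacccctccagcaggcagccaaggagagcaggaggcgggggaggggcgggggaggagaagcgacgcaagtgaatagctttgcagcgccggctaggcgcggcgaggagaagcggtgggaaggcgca
Lef1 downstream start: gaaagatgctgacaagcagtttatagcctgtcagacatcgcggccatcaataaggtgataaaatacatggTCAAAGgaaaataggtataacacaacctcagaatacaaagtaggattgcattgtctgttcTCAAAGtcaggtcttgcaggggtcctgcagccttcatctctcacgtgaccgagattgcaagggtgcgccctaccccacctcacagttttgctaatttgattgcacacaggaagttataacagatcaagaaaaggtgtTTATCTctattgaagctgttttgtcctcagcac
Msx1: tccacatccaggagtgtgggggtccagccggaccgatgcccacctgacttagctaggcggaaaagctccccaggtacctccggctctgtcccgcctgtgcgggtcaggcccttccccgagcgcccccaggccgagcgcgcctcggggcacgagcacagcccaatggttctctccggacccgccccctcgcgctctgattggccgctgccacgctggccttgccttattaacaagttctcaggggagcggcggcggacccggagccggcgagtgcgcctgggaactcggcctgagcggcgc
Msx2: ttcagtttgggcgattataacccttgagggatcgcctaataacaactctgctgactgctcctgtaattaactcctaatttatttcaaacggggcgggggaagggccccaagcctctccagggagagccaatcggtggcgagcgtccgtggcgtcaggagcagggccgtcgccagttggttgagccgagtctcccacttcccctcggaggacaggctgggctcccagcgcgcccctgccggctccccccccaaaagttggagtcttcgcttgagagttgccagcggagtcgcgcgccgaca

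The downstream Lef1 window held CTTTGA at 2 places, each on the reverse strand and therefore printed as TCAAAG, at positions -180 and -120 relative to the start. It also held AGATAA once, on the reverse strand and 18 bases into the transcript, and no matches overlapped. Among all 32851 windows 16.0% held CTTTGA, 8.00% TAATTG, 3.65% GTAAACA and 11.2% AGATAA. Every other Lef1 window, printed or not, held none of these motifs. Nor did the windows of Msx1, Msx2, Foxn1 and Gata3. GC content was 67.3% in the upstream Lef1 window, 43.7% in the downstream one, 70.0% for Msx1 and 61.0% for Msx2, against a median of 52.7% over all windows. A match describes the letters only, and the arrays do not show which start was used.

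Foxn1, the gene mutated in nude mice, drives the differentiation of shaft keratinocytes. It read 2.13, 2.08 and 2.43 on aged replicates 1, 2 and 3, against 2.51, 2.36 and 2.77 on the young arrays. The groups overlapped at aged replicate 3. The difference was -0.33 ± 0.16 (SE, limma adjusted p = 0.328), with a 95% confidence interval of -0.73 to 0.06. By replicate number it was -0.38, -0.28 and -0.34, and without aged replicate 1 it was -0.29 (adjusted p = 0.382).

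Foxq1, the gene mutated in satin mice, is needed for the medulla of the hair shaft. It read 3.06, 2.96 and 3.29 on aged replicates 1, 2 and 3, against 2.33, 2.82 and 2.83 on the young arrays. All aged values lay above all young values, the 1 factor of the 6 tested for which the groups did not overlap, where 27.0% of all tested genes did so (19.5% with aged above young and 7.48% with aged below). The difference was 0.44 ± 0.18 (SE, 1.36-fold, limma adjusted p = 0.272), and the lowest aged array, at 2.96, stood close to the highest young array, at 2.83. It was 0.25 with array weights, 0.27 with the slide row as a block and 0.28 without young replicate 1.

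Gata3 encodes a zinc finger factor that specifies the inner root sheath. It read 4.62, 4.23 and 4.58 on aged replicates 1, 2 and 3, against 4.11, 4.30 and 4.41 on the young arrays, and the groups overlapped. The difference was 0.20 ± 0.16 (SE, limma adjusted p = 0.518), with a 95% confidence interval of -0.18 to 0.58. Its sign turned with array weights, at -0.019. For Foxn1 and Gata3 a fall of the size seen for Lef1 at 25 months lay outside the interval.

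Foxe1, a forkhead gene of thyroid and hair follicle, did not stand well above background on any of the 3 aged or 3 young arrays. Its signals of -4.75, -6.59 and -6.10 on aged replicates 1, 2 and 3, against -6.23, -5.40 and -6.66 on the young arrays, are therefore given without a fold or a test.

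Hair shaft keratins and sheath genes are structural products of the cells that leave the matrix. Krt31 and Krt35 of the shaft list are also grouped with the keratins of tail scales, whose part was not tested. The 12 tested hair shaft keratin genes were all lower in aged epidermis, 0 past the threshold and 9 at an unadjusted p under 0.05, where 891 of all tested genes (6.30%) were lower at that p. Their median deviation from the young mean was -0.71, -3.34 and -6.31 on aged replicates 1, 2 and 3, against 0.23, -0.53 and 0.26 on the young arrays. At 25 months, without aged replicate 1, 8 of the 12 were lower past the threshold, beside 3.76% of all tested genes. The cortex keratin Krt33a did not pass there, at -5.22, nor did Krt32, at -0.09 (both named after their values were seen). Of the 4 with the smallest p, the shaft keratin Krt35 differed by -3.95 ± 1.40 (SE) with all arrays, Krt82 by -4.09 ± 1.46, Krt81 by -2.76 ± 0.92 and Krt39 by -1.32 ± 0.18, with limma adjusted p between 0.0892 and 0.234.

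Among 12 inner root sheath genes 11 were lower and 1 higher (Tgm3, at 0.08), 0 past the threshold and 10 lower at an unadjusted p under 0.05, beside the 6.30% of all tested genes. Their median deviations were -0.86, -3.17 and -5.79 on aged replicates 1, 2 and 3, against 0.25, -0.24 and 0.00 on the young arrays. Examples were the sheath keratin Krt72 at -2.90 ± 0.68 (SE), the desmoglein gene Dsg4, above background on 2 of the 3 aged arrays, at -3.57 ± 1.05 and the deiminase gene Padi3 at -4.06 ± 1.26. Krt74 also stood among the 4 with the smallest p, but it exceeded background clearly on 1 aged array only, the 22-month one, so no size is given for its difference. At 25 months 8 of these 12 genes were lower past the threshold, Krt74 among them, beside 3.76% of all tested genes.

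The factors did not follow these lists alike. On the 25-month arrays Lef1 stood 3.39 and 3.87 log2 units below its young mean, at deviations of -3.39 and -3.87 on aged replicates 2 and 3. Msx2 deviated by -1.84 and -1.27 on the same arrays, less on the array where shaft keratins were lowest. Gata3, at -0.05 and 0.30, and Foxn1, at -0.47 and -0.12, stayed near their young means there, while the Foxq1 deviations were 0.30 and 0.63.

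**Figure D3:**
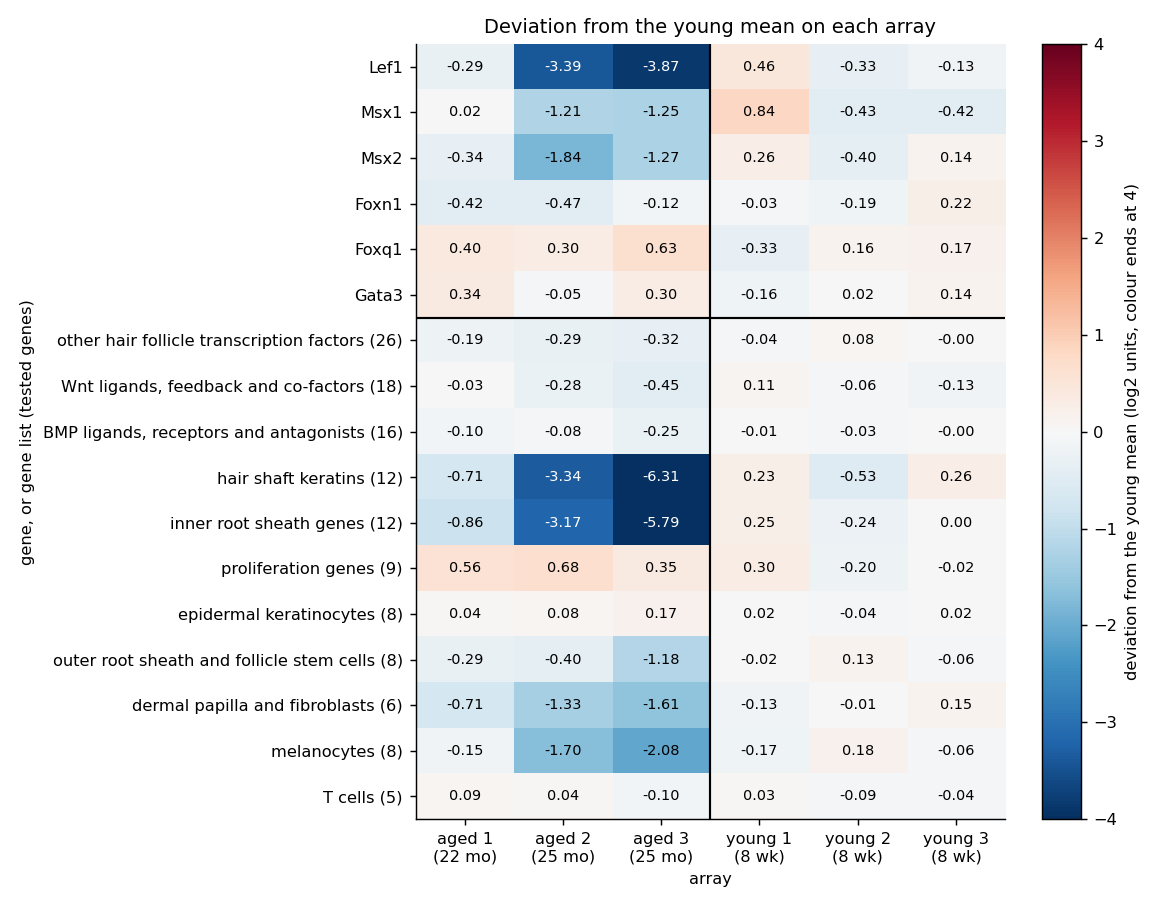
Deviation from the young mean in log2 units on each array for the 6 tested factors (upper rows) and the median deviation of tested genes of 11 lists (lower rows, number of genes in brackets); the colour scale ends at 4 in each direction. Hair shaft keratins at -6.31 and Lef1 at -3.87 are lowest on aged replicate 3, and epidermal keratinocyte markers lie between -0.04 and 0.17 on all arrays.

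Markers of other cells that a tail epidermis sample can hold are given next, and their part in the results above was not tested. All 8 melanocyte genes were lower, 0 past the threshold, with median deviations of -0.15, -1.70 and -2.08 on aged replicates 1, 2 and 3, against -0.17 to 0.18 on young arrays. Their summed signal, in units of the array's 75th percentile, was 5.21 to 14.0 on aged and 15.4 to 19.4 on young arrays, and 6 of the 8 were well above background on every aged array. Mitf differed by -1.06 ± 0.17 (SE, limma adjusted p = 0.107), and 7 of the 8 were lower past the threshold without aged replicate 1, beside 3.76% of all tested genes.

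Of 10 markers of dermal papilla and fibroblasts 4 (Lum, Pdgfra, Crabp1 and Sox2) did not stand well above background on any of the arrays. The summed signal of the 10 was 3.96 to 22.0 on aged and 6.66 to 9.71 on young arrays. The highest sum was on aged replicate 1, where decorin (Dcn, named after its value was seen) read 4.34, against 1.92 and 1.19 on the other aged arrays and 1.95 to 2.84 on young arrays. Of the 6 tested genes 5 were lower and 1, Dcn, higher. Col1a1, at -2.95 ± 0.18 (SE, limma adjusted p = 0.0283), and Col3a1, at least 5.14-fold lower (adjusted p = 0.0467), fell. Col1a2 differed by -2.08 ± 0.35 (SE, adjusted p = 0.111), while Vcan, at -0.09 ± 0.14, and Alpl, at -0.04 ± 0.29 (Alpl was named after its value was seen), did not pass. Col3a1 did not stand well above background on any aged array and Col1a1 did on 2. With the replicate block, or with any array but aged replicate 1 left out, no gene passed, these 2 included. Without aged replicate 1, 3 of the 6 were lower past the threshold, Col1a1, Col1a2 and Col3a1, beside 3.76% of all tested genes. "At least" sets the young mean against an aged mean under a floor rule. Each aged array counts with its lowest signal marked well above background, or with the signal of the probe if that is higher. That lowest signal is not a strict detection limit, so "at least" holds under this rule only. On aged replicate 1 it was -5.43, and Col3a1 went unmarked there at -5.02.

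Of the 9 T cell markers named on the array, Cd3d, Cd247 and Il2rb were at background throughout. The summed signal of the 9 was 4.32 to 10.6 on aged and 2.76 to 3.99 on young arrays. Its order over the arrays followed that of Thy1, the brightest of the 9 on every array. Thy1 read 1.46, 3.17 and 2.54 on aged replicates 1, 2 and 3, against 1.28, 0.33 and 0.75 on the young arrays. Of the 5 tested T cell markers 3 were higher and 2 lower, 0 past the threshold, with a median difference of 0.02. Thy1, which fibroblasts also express, differed by 1.60 ± 0.47 (SE, limma adjusted p = 0.192), Cd7 by -0.40 ± 0.26 and Cd3e by 0.07 ± 0.10. At 25 months Thy1 was higher past the threshold, at 2.07 (limma adjusted p = 0.0297), beside 1.96% of all tested genes. None of the other tested T cell markers passed there. Cd3g was well above background on 1 aged and 2 young arrays. Outer root sheath and follicle stem cell markers were lower for 7 of 8 genes, 0 past the threshold, with a median difference of -0.49. Their summed signal was 198.0 to 560.2 on aged and 337.1 to 414.0 on young arrays. Gpc3 differed by -1.81 ± 0.40 (SE, adjusted p = 0.139) and the companion layer keratin Krt75 by -1.33 ± 0.48 (adjusted p = 0.240).

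The 9 tested proliferation genes were all higher in aged epidermis, 0 past the threshold and 7 at an unadjusted p under 0.05, where 11.4% of all tested genes were higher at that p. The mitotic kinase gene Aurka differed by 0.72 ± 0.13 (SE, limma adjusted p = 0.114) and Cdk1 by 0.65 ± 0.18 (adjusted p = 0.184). Their summed signal was 37.7 to 45.9 on aged and 27.6 to 34.9 on young arrays.

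Of 26 other transcription factors of the follicle 23 were lower and 3 higher in aged epidermis, where 36.4% of all tested genes were lower, with a median of -0.24. None passed the threshold by limma and 4 were lower at an unadjusted p under 0.05, beside 6.30% of all tested genes (17.7% in either direction). The homeobox gene Dlx3 differed by -0.46 ± 0.13 (SE), Id2, a helix-loop-helix inhibitor, by -0.52 ± 0.15, Runx1 by -0.85 ± 0.27 and Tcf7, a relative of Lef1, by -0.80 ± 0.26, with limma adjusted p between 0.188 and 0.213. All aged arrays lay below all young arrays for 5 of the 26, Dlx3, Id2 and Tcf7 among them, beside 7.48% of all tested genes. Without overlap in either direction were 27.0% of all tested genes. At 25 months the list had 2 genes lower past the threshold, beside 3.76% of all tested genes: Tcf7 at -1.05 (adjusted p = 0.0417) and Tcf7l1 at -0.68 (adjusted p = 0.0473, named after its value was seen).

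The Wnt list holds ligands and receptors together with feedback inhibitors, targets and co-repressors. Of its 18 tested genes 15 were lower, where 36.4% of all tested genes were, with a median of -0.19. By limma 0 passed the threshold and 7 were lower at an unadjusted p under 0.05, beside 6.30% of all tested genes. Rspo1, which enhances Wnt signals, did not stand well above background on any aged array and was at least 2.98-fold lower (adjusted p = 0.114). The feedback inhibitor Nkd1 differed by -2.03 ± 0.61 (SE), the ligand Wnt5a by -0.91 ± 0.24 and the co-receptor Lrp6 by -0.37 ± 0.12, with adjusted p between 0.174 and 0.218. At 25 months 4 of the 18 passed, all lower (Rspo1, Nkd1, Wnt5a and Wnt11), beside 3.76% of all tested genes. β-catenin (Ctnnb1, -0.15 ± 0.15) and the Wnt target Axin2 (-0.10 ± 0.18) differed little. Lgr5 of the same list differed by -1.67 ± 0.57 (SE, limma adjusted p = 0.220). At 25 months Lgr5 was at -2.19 and did not pass (limma adjusted p = 0.0536). Ctnnb1, Axin2 and Lgr5 were named after their values were seen.

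Of 16 tested BMP ligands, receptors and antagonists, the pathway upstream of the Msx genes, 11 were lower and 5 higher, 0 past the threshold by limma and 6 at an unadjusted p under 0.05, beside 17.7% of all tested genes, with a median of -0.09. The ligand Bmp8a differed by -1.42 ± 0.26 (SE), the antagonist Nog by -1.82 ± 0.39, the inhibitory Smad6 by -1.17 ± 0.30 and the ligand Bmp4 by -0.70 ± 0.19, with limma adjusted p between 0.115 and 0.184. All aged arrays lay below all young arrays for 5 of the 16, these 4 genes included, beside 7.48% of all tested genes. Without overlap in either direction were 27.0% of all tested genes. At 25 months Bmp4, Bmp8a, Smad6 and the antagonist Sostdc1 were lower past the threshold and Id1, a target of BMP signals, was higher, 5 of 16 genes beside 5.72% of all tested genes.

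**Figure D4:**
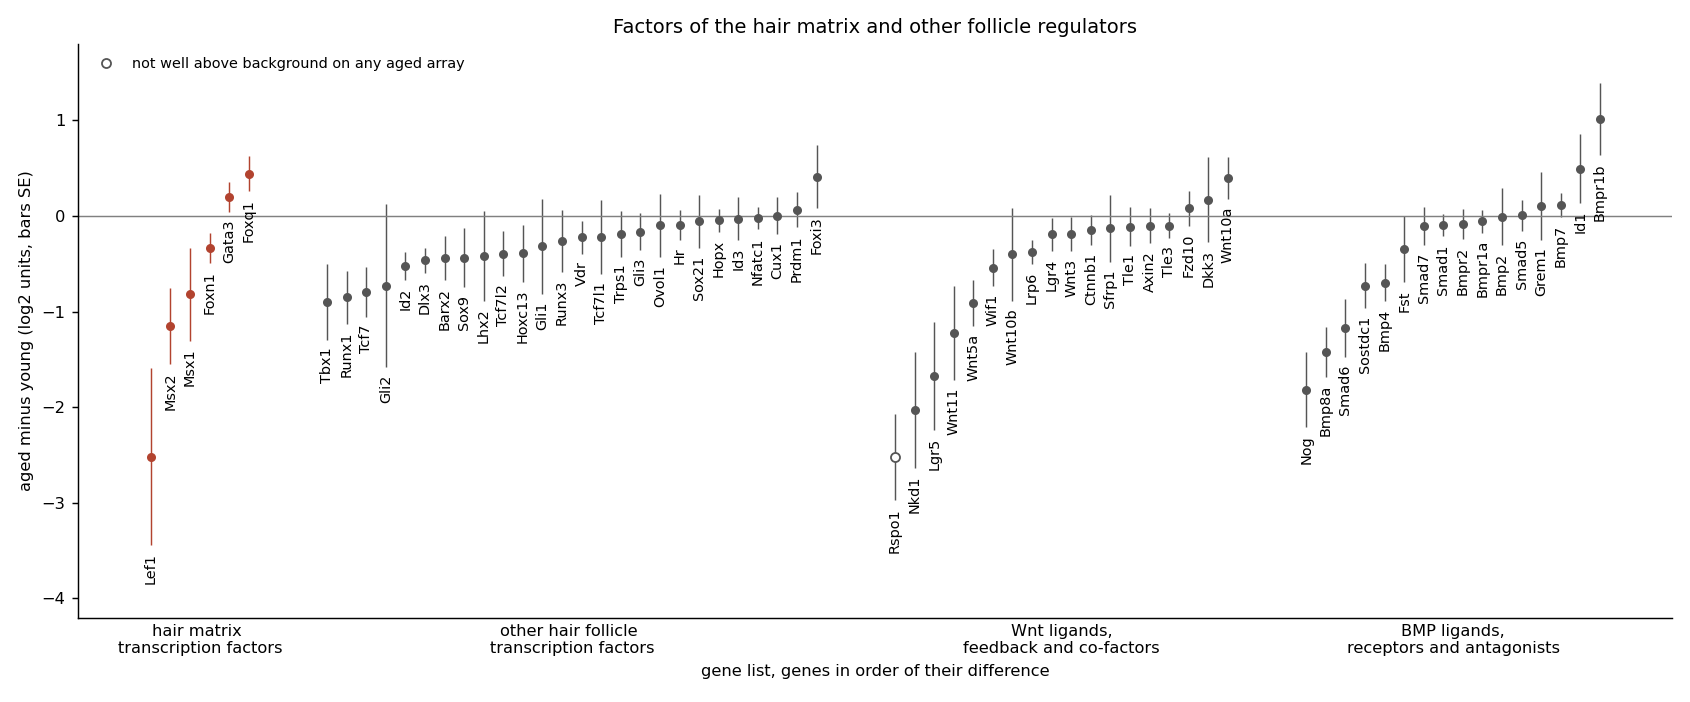
Aged minus young difference in log2 units (points) with SE (bars) for the 6 tested hair matrix factors and for every tested gene of 3 lists of follicle regulators, in order of the measured difference within each list; the open circle is Rspo1, which has only a bound in aged epidermis. Lef1 at -2.52, Nkd1 at -2.03 and Nog at -1.82 stand lowest among the filled circles, and most of the other 26 follicle transcription factors lie between -1 and 0.

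The genes most like each factor were taken as those with the smallest root mean square difference over the 6 arrays, after each gene was centred on its own mean. For Lef1 they were the zinc transporter gene Slc39a8 (0.13 log2 units), Spsb4 (0.20) and Csdc2 (0.21), beside a SD of 1.87 for Lef1 itself. For Msx2 they were S100a3, a calcium-binding protein of the hair cuticle (0.10), the kinase gene Srms (0.14) and the transcription factor gene Myb (0.14), beside a SD of 0.82. For Msx1 they were Txnip (0.22), Myl6b (0.22) and Nxnl2 (0.22), beside a SD of 0.79.

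Foxn1, Foxq1 and Gata3 varied less over the arrays, with a SD of 0.25, 0.32 and 0.20 in this order. The nearest genes were Doc2a, Th and Gzmk for Foxn1, Nadsyn1, Pigv and Oas1a for Foxq1, and Fam98c, Smim5 and Wdr54 for Gata3, at 0.05 to 0.06 log2 units. Among the factors themselves Foxq1 and Gata3 (0.18), Foxn1 and Gata3 (0.31) and Msx1 and Msx2 (0.41) lay closest, and Lef1 and Foxq1 (1.92) farthest apart. These likenesses rest on 6 arrays and describe the values only.

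**Figure D5:**
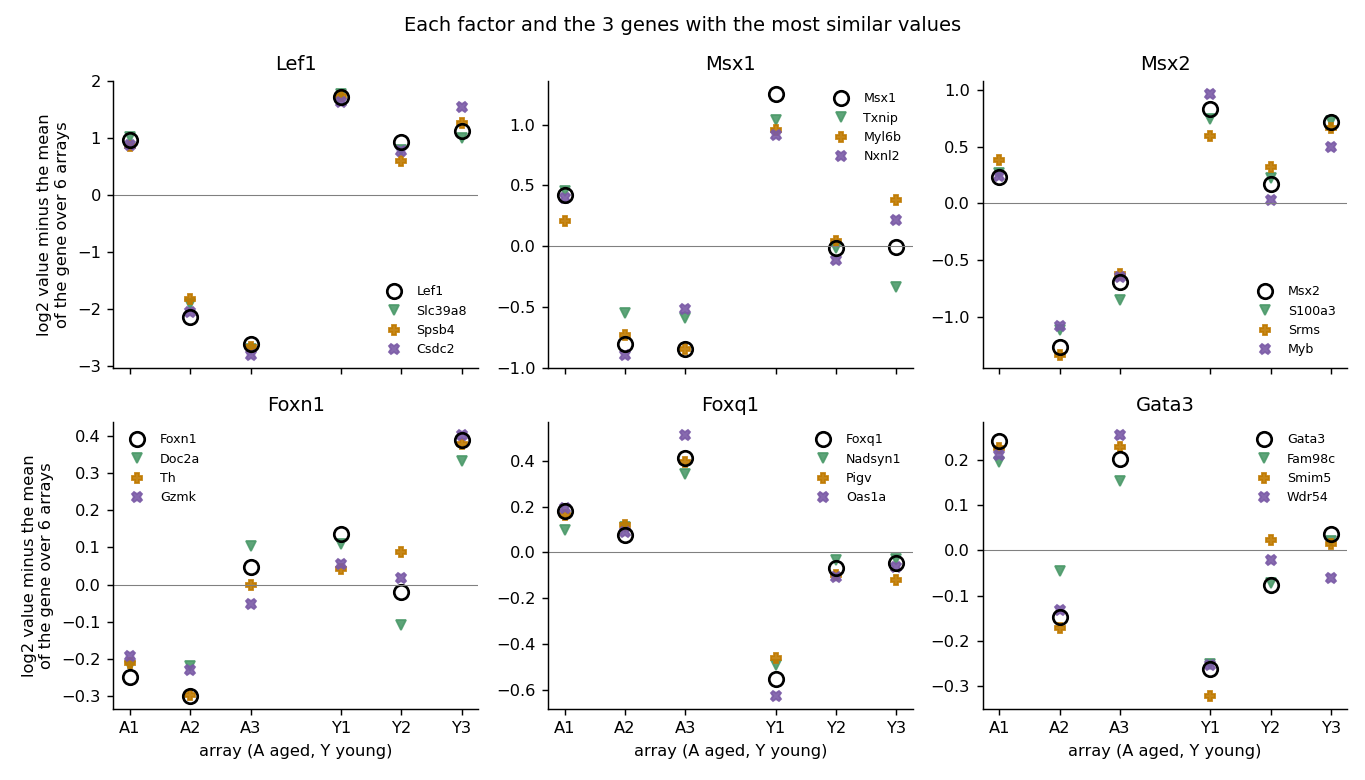
Log2 value minus the gene's own mean over the 6 arrays for each tested factor (open circles) and the 3 genes with the smallest root mean square difference from it (filled symbols); the vertical scale differs between panels. Lef1 and Slc39a8 differ by 0.13 log2 units and share low values on aged replicates 2 and 3.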

How the data were processed

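The file headers name Feature Extraction 11.5.1.1, 1 slide and the mm9 build. Per the file headers, the processed signal is a linear intensity from which the authors' software took background and a spatial trend on each array, with no scaling across arrays. For spot and background the median intensity was also deposited, untransformed. The authors' deposited table holds log2 values of 33870 probes, which followed the values used here, centred on each probe's median, with r of at least 0.9999 for each array. Its column medians were -0.01, 0.02 and 0.07 for aged replicates 1 to 3 and -0.01, -0.02 and -0.02 for young replicates 1 to 3. How the table was made is not given in the sources used here.

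The processed signal was set relative to the array's 75th percentile on the log2 scale, without control spots and spots marked as outliers (116 to 170 per array, none of them of the factors). RefSeq accessions named 28331 of 55681 probes. The brightest tested probe stood for a gene, which gave 14136 tested genes beside unnamed probes. Groups were compared with limma 3.58.1 in R 4.3.3 (lmFit and eBayes, two-sided, no covariate), adjusted by Benjamini-Hochberg over all features at 0.05, after a check on simulated data. Members and lists were chosen with earlier results of these data known. The text names all members, up to 4 genes per list by unadjusted p and the 3 genes most like each tested factor. Alternatives were background correction, scaling, filters, blocks, array weights, probe choice and left-out arrays. The titles number the samples 1 to 3 in each group. After the group mean was taken off, samples with the same number correlated across genes, with r of 0.414, 0.257 and 0.134. Genes are not independent replicates. The numbers were read as pairs for the replicate block, though nothing in the labels says what they share, and the main fit did not use them. Aged replicate 3 was closer to young replicate 2 (0.295), and aged replicate 2 stood at 0.093 with young replicate 3. These values do not settle which of replicates 2 and 3 belong together. Groups of 3 arrays were not checked for single outliers.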

Additional observations from a re-analysis of the deposited data

How the results depend on the processing

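The count of 11 genes past the threshold moved with most settings. It was 7 with quantile normalization, 21 with scaling to the median, 3 with probes above background on all 6 arrays, 1 with no filter, 0 with the slide row as a block, 1887 with array weights and 215 without replicate 1 of both groups. Leaving out 1 array gave 0 to 809. Within slide row 2, an alternative added after seeing the data that holds 1 young array assumed to vary like the aged ones, it was 0. With the replicate number as a block 0 genes passed and 2710 stood at an unadjusted p under 0.05; 0 of the 6 factors passed and 5 stood at that p, so the block changed no call of a factor. The number of factors past the threshold was 0, but 2 with array weights (Lef1 and Msx2) and 1 without replicate 1 of both groups (Lef1), and 0 to 2 when 1 array was left out, the 2 without aged replicate 1. Lef1, Msx1, Msx2, Foxn1 and Foxq1 kept their sign under all 18 alternatives. Gata3 did so under 17 and was -0.019 with array weights. The slide row as a block and row 2 alone are not separate checks, as row 1 held young arrays only and both gave the same differences. Lef1 ranged from -3.63 to -1.84, Msx2 from -1.58 to -0.80 and Msx1 from -1.23 to -0.39. The cause of these shifts was not tested. The dimmer Lef1 probe on aged replicate 3 lay near background and Foxe1 did not exceed it, which limits what these probes can show.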

Other observations

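Sebaceous gland genes, which sit beside the upper follicle, had a median deviation of 1.16, 0.13 and -1.05 on aged replicates 1, 2 and 3, against 0.67, -0.18 and -0.47 on young replicates 1, 2 and 3. Replicate 1 was highest in each group, as it was for Msx1. Of these 8 genes 5 were higher and 3 lower in aged epidermis, with 0 past the threshold and Mgst1, a microsomal glutathione transferase gene, leading at 0.77 ± 0.29 (SE, limma adjusted p = 0.247). Langerhans cell genes stood at -3.92, -1.20 and -0.02 on aged replicates 1, 2 and 3, against -0.30, 0.18 and 0.13 on the young arrays, so their lowest array was the one on which Lef1 was highest among the aged. Mfge8, the gene of this list with the smallest p, differed by -0.98 ± 0.23 (SE, adjusted p = 0.151). Of 6 Merkel cell markers 3 (Krt20, Isl1 and Piezo2) were not well above background on any array, and of the 2 tested Krt18 differed by -1.56 ± 0.67 (SE, adjusted p = 0.287) and Krt8 by 0.03 ± 0.60 (SE, adjusted p = 0.987).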
